A study of Mus musculus with 50 samples.

Results

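The genes described here are 10 imprinted genes of growth and neural development, H19, Igf2, Dlk1, Cdkn1c, Grb10, Mest, Ndn, Snrpn, Meg3 and Peg3. They were chosen by name, and a named gene entered if the deposited RNA sequencing counts held a row for it. All 10 were present among the 11708 genes of the table. Presence in the table required a minimum count in every library. The names themselves were picked with earlier results of these data known, so that the 10 are not an independent sample of imprinted genes.

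RNA was sequenced from whole brains of mouse embryos at E13.5, labelled with the strain FVB/ANTJ. The 18 libraries formed 6 groups of 3, and 9 belonged to a comparison of mutations in Gtf2i and 9 to a comparison of mutations in Gtf2ird1. Both genes encode transcription factors of the TFII-I family and lie in the region deleted in Williams syndrome. In the Gtf2i comparison the genotype labels were wt, gtf2i and gtf2i/gtf2i, and in the Gtf2ird1 comparison they were wt, ird1 and ird1/ird1. The label gtf2i or ird1 was read as 1 mutant allele and the doubled label as 2. The labels do not describe the alleles further, no other allele or agent is named in any group, and each comparison had its own wt embryos. Libraries within a group are labelled as separate samples, so p-values measure the spread between these samples. Each title begins with a number whose meaning the labels do not give. In the Gtf2ird1 comparison the only numbers are 11610 and 11902, and 2 of the 3 libraries of each group share 11610. Whether those libraries are independent of each other was not tested.

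At an imprinted gene the copies inherited from the mother and the father are marked differently in the germ line, usually by DNA methylation, and mainly a single parental copy is transcribed. Many genes expressed from the paternal copy promote growth, such as Igf2, Dlk1, Mest and Peg3, while several expressed from the maternal copy restrain it, such as Cdkn1c, Grb10 and the long non-coding RNA H19. In the embryonic brain Igf2 is made mainly by the choroid plexus, meninges and vessels, whereas Ndn, Snrpn, Peg3 and Meg3 are strongly expressed in neurons. The counts do not separate the parental copies, so every value below is the sum of both.

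H19, Mest, Igf2 and Meg3 also overlap microRNA genes in RefSeq. The mature sequences of both arms from H19 and of the 5′ arm from Mest are shown as examples. H19 was the 1 gene of the 10 that passed against wt in the main edgeR fit, though others passed in alternative fits. Mest passed against gtf2i. Capitals mark the seed, bases 2 to 8, and no seed is shared among the 3. The mature microRNAs themselves were not measured here.
mmu-miR-675-5p: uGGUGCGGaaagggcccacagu
mmu-miR-675-3p: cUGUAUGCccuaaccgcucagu
mmu-miR-335-5p: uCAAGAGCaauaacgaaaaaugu

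RefSeq promoter windows of GRCm38.p6, 250 bases before to 50 after a start site, were found for 8 of the 10 genes, with 18 start sites in all. H19 and Cdkn1c were not matched. The windows of Dlk1, Mest and Ndn are shown because these genes passed in gtf2i/gtf2i against gtf2i, Dlk1 and Mest higher and Ndn lower, though none of the 3 passed against wt in the main edgeR fit, and that of Igf2 because it holds a further match of the GTF2IRD1 letters. Capitals mark GGATTA, the core that GTF2IRD1 is known to bind, and TGCCGC, the core bound by the imprint-maintaining protein ZFP57, each on either strand, and the marked matches do not overlap. The Dlk1 window is chr12:109452573-109452872 on the plus strand, the second Mest window chr6:30737800-30738099 on the plus strand, the third Igf2 window chr7:142658755-142659054 on the minus strand, and the Ndn window chr7:62348027-62348326 on the plus strand.
Dlk1: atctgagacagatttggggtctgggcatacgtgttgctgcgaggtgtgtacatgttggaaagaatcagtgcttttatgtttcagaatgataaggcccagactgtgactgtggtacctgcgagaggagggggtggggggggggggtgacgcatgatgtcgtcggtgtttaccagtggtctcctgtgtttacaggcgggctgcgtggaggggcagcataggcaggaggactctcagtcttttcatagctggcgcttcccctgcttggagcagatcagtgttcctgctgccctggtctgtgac
Mest: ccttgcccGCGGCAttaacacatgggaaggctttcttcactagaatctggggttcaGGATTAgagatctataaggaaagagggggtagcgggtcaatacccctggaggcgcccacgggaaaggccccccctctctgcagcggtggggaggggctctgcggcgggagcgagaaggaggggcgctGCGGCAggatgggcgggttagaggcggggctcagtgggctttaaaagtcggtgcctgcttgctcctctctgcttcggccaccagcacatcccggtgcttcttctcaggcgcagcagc
Igf2: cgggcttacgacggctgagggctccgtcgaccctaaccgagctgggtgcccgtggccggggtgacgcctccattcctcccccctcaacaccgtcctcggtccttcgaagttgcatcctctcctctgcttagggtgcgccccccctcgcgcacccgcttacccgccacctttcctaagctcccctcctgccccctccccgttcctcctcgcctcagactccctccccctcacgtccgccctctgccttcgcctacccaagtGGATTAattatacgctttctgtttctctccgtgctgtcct
Ndn: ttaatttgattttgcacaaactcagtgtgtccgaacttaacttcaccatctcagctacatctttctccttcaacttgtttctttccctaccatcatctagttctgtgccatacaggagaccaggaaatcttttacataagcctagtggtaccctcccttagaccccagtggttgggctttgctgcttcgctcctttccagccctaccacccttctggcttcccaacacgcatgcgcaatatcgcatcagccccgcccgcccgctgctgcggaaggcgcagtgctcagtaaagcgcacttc

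GGATTA on either strand was in 3 of the 18 windows, 2 of overlapping Mest start sites and 1 of Igf2, and in 7.06% of all 32851 RefSeq windows. TGCCGC on either strand was in 6 of the 18 and in 11.6% of all windows. The E-box palindrome CACGTG was in 0 of the 18 and in 7.15% of all windows, and the wider E-box CANNTG, which includes CACGTG, was in 10 of the 18 and in 72.3% of all windows. The Dlk1 and Ndn windows held neither GGATTA nor TGCCGC. These are letter matches in short windows and say nothing about binding.

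The 10 genes lie in 6 places of the genome (GRCm38.p6). H19 (ENSMUSG00000000031, chr7:142575530-142578146) and Igf2 (ENSMUSG00000048583, chr7:142650768-142666816) are neighbours on distal chromosome 7, where Cdkn1c (ENSMUSG00000037664, chr7:143458339-143461059) lies further along. Snrpn (ENSMUSG00000102252, chr7:59982495-60450177) and Ndn (ENSMUSG00000033585, chr7:62348277-62349928) belong to the central chromosome 7 cluster whose human counterpart is lost in Prader-Willi syndrome, and Peg3 (ENSMUSG00000002265, chr7:6703892-6730462) lies on proximal chromosome 7. Dlk1 (ENSMUSG00000040856, chr12:109452485-109463336) and Meg3 (ENSMUSG00000021268, chr12:109540996-109571729) are neighbours on distal chromosome 12. Mest (ENSMUSG00000051855, chr6:30733506-30748466) and Grb10 (ENSMUSG00000020176, chr11:11930499-12037428) are on chromosomes 6 and 11. RefSeq places Rtl1 over Meg3, Copg2 over Mest and Snhg14 over Snrpn. The strand setting of the counting is not given in the sources used here, so reads from these overlapping pairs cannot be told apart.

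Library totals ranged from 3239117 to 7371483 counts, and the shallowest library was replicate 2 of the wt of the Gtf2ird1 comparison. Gtf2i RNA was 624 ± 30.7 CPM in wt, 368 ± 6.23 in gtf2i and 82.5 ± 0.797 in gtf2i/gtf2i (SD, n = 3 each), which follows the labels. Gtf2ird1 RNA was not lower in the libraries labelled ird1/ird1 but 2.27-fold higher than in wt (log2 fold change 1.18, SE 0.0974, adjusted p = 3.92e-05 by edgeR's quasi-likelihood test), so its level does not show that the ird1 label means loss, and all ird1 groups below are named as labelled. In gtf2i/gtf2i it was 2.87-fold higher than in wt (adjusted p = 5.61e-07 by edgeR). For the label of whole brain, 16 of 16 listed neuron markers and 15 of 16 listed radial glia markers were in the table.

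Levels between genes were compared per length, as CPM, read counts relative to the TMM-scaled library total, divided by the deposited length in kilobases, in the 6 wt libraries. H19 was at 183 ± 22.9 CPM per kilobase (SD, n = 6), and 98.4% of all genes had a lower mean over the 18 libraries. Ndn followed at 173 ± 21.4, Cdkn1c at 135 ± 9.54, Mest at 121 ± 9.55 and Grb10 at 111 ± 8.51. Ndn's deposited length, 3694 bases, exceeds its RefSeq span of 1652 bases, so its place in this order depends on that length. The ranges of H19 and Ndn overlapped, as did those of Cdkn1c and Mest and of Mest and Grb10. Snrpn at 49.4 ± 2.31, Dlk1 at 40.1 ± 8.78, Peg3 at 28.7 ± 5.24, Meg3 at 16.5 ± 2.48 and Igf2 at 6.86 ± 0.599 CPM per kilobase were lower. The range of Dlk1, 30.3 to 55.7, overlapped those of Snrpn, 45.5 to 52.1, and Peg3, 22.8 to 36.9. Igf2 was the only one of the 10 below the median gene, with 35.1% of genes lower. The growth factor Igf2 was thus the least abundant of the 10 per length, and genes whose ranges overlapped, H19 and Ndn among them, cannot be ordered.

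Only H19 passed the threshold between gtf2i/gtf2i and wt, an adjusted p under 0.05 over all 11708 genes by edgeR's quasi-likelihood test, and it was higher. The threshold was passed by 0.94% of all genes, 0.41% in the direction of higher. With the title number as a block 6 of the 10 passed, and 5 of these, H19, Dlk1, Grb10, Mest and Cdkn1c, were higher while Ndn was lower. In that fit 5.33% of all genes passed, 2.03% higher and 3.3% lower. The number that begins each title was treated as pairing the wt and gtf2i/gtf2i libraries. Each number holds 1 library of each genotype of this comparison. By number, wt replicates 1, 2 and 3 go with gtf2i/gtf2i replicates 2, 1 and 3 and with gtf2i replicates 3, 1 and 2. An unadjusted p under 0.05 was found for 8 of the 10 genes without the block, against 14.4% of all genes. The libraries of both groups did not overlap for 6 of the 10, 5 higher and 1 lower, against 16.8% of all genes, 7.82% higher and 8.98% lower. The median log2 fold change of the 10 was 0.30, and of all genes 0.00160. Here and throughout, fewer cells of a type and less RNA per cell cannot be told apart in whole tissue.

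**Figure D1:**
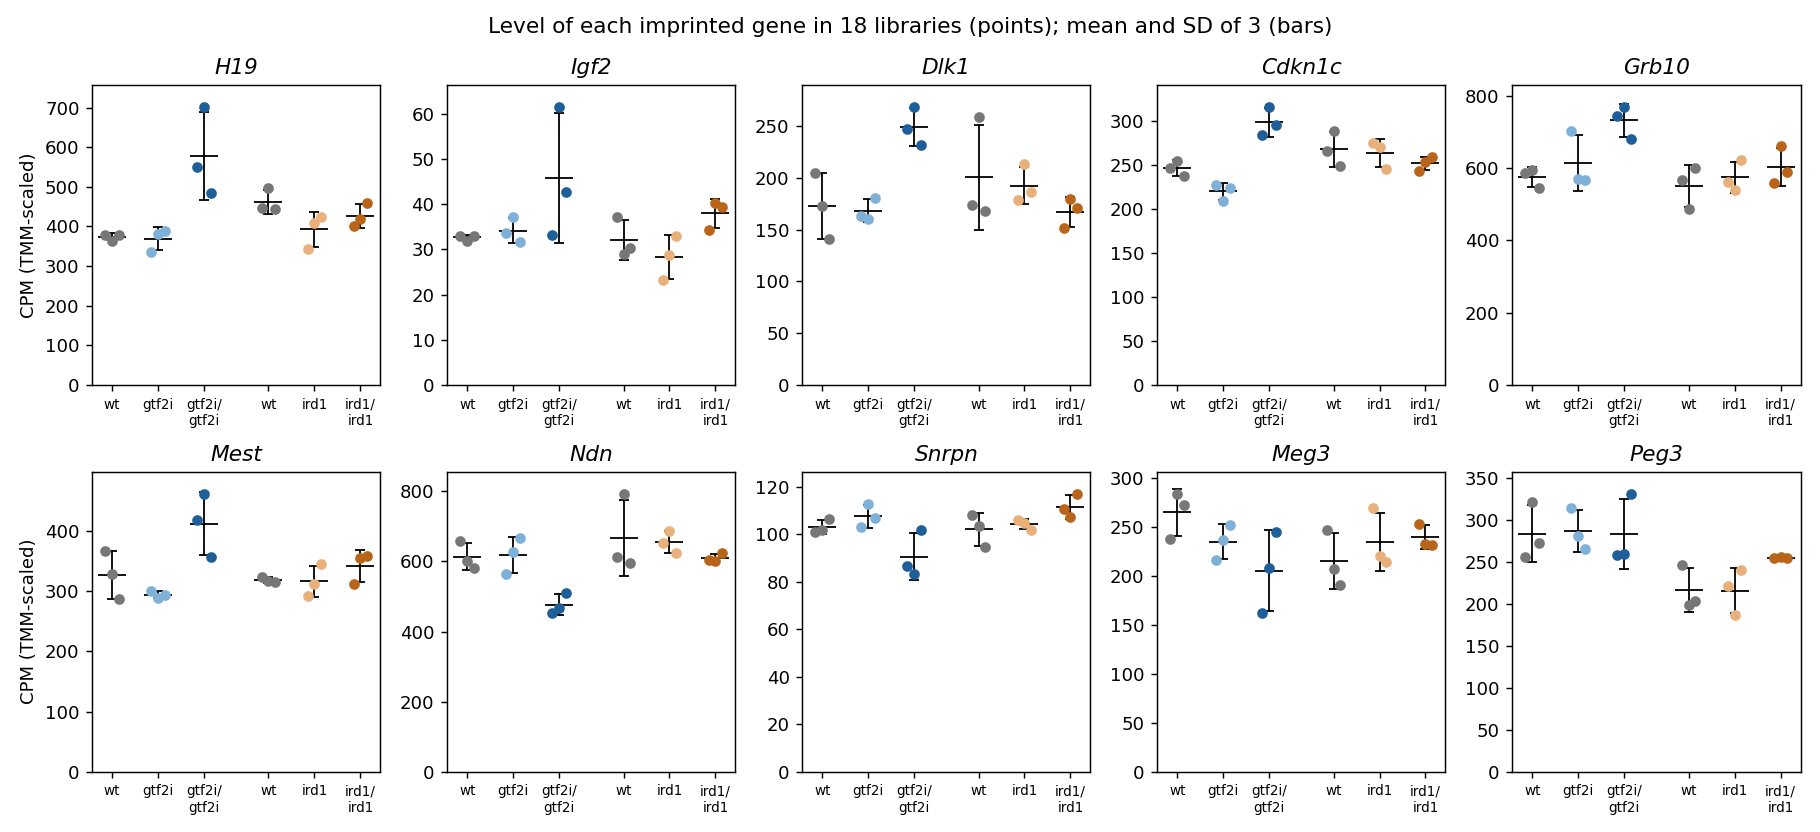
Level of each of the 10 genes in CPM (y axes from 0, each gene on its own scale) in the 18 libraries, by genotype label (x axes); points are libraries, bars the mean and SD of 3. The 3 gtf2i/gtf2i libraries of H19, between 485 and 701 CPM, sit above the wt and gtf2i libraries of their comparison, and those of Ndn, between 453 and 510 CPM, sit below them.

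H19, a maternally expressed non-coding RNA that restrains growth, was at 379, 364 and 380 CPM in the wt libraries of the Gtf2i comparison (replicates 1 to 3). It was at 336, 381 and 390 CPM in gtf2i and at 550, 701 and 485 CPM in gtf2i/gtf2i. All 3 gtf2i/gtf2i libraries were above all 6 others of the comparison, and their spread was wider (SD 111 against 8.96 CPM in wt). The rise over wt was 1.54-fold, a log2 fold change of 0.62 (SE 0.114, adjusted p = 0.0199 by edgeR, 0.00191 with the block). Without gtf2i/gtf2i replicate 2, the highest library, the log2 fold change was 0.46 and the adjusted p by edgeR 0.0856. The adjusted p was also above the threshold without each wt replicate in turn, and ranged from 9.99e-05 to 0.0856 over all alternatives. Against gtf2i the rise was 0.64 (SE 0.114, adjusted p = 0.0104 by edgeR, and 0.0568 without gtf2i replicate 2). This second comparison shares the gtf2i/gtf2i libraries with the first.

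Igf2, the growth factor whose gene shares enhancers with H19, was at 33.0, 31.9 and 33.0 CPM in wt and at 33.7, 37.1 and 31.6 CPM in gtf2i. In gtf2i/gtf2i it was at 33.2, 61.4 and 42.6 CPM, so replicate 1 lay at the wt level and replicate 2 well above it. The log2 fold change against wt was 0.46 (SE 0.172, adjusted p = 0.22 by edgeR, 0.103 with the block), which did not pass. It was 0.21 without replicate 2 of gtf2i/gtf2i and 0.65 without replicate 1.

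Dlk1, a paternally expressed transmembrane protein related to Notch ligands, was at 205, 173 and 141 CPM in wt. In gtf2i it was at 164, 160 and 181 CPM and in gtf2i/gtf2i at 247, 268 and 231 CPM. The gtf2i/gtf2i libraries were above all 6 others, while the wt libraries were spread widely. The log2 fold change against wt was 0.52 (SE 0.115, adjusted p = 0.051 by edgeR), which did not pass, and 0.53 with the block (SE 0.0782, adjusted p = 0.00172). Dlk1 passed in 7 alternatives and not in 7 others. Those in which it passed were the block, DESeq2, library totals, upper-quartile scaling, a mean count of at least 50, and leaving out wt replicate 1 or gtf2i/gtf2i replicate 3, and its adjusted p ranged from 0.00172 to 0.219. Against gtf2i, Dlk1 rose by 0.56 (SE 0.115, adjusted p = 0.0219 by edgeR).

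Cdkn1c encodes p57, a maternally expressed inhibitor of cyclin-dependent kinases that acts when progenitors leave the cell cycle. It was at 247, 255 and 238 CPM in wt, at 228, 210 and 224 CPM in gtf2i and at 285, 316 and 295 CPM in gtf2i/gtf2i. The 3 genotypes did not overlap, and gtf2i lay below wt rather than between wt and gtf2i/gtf2i. The log2 fold change of gtf2i/gtf2i was 0.27 against wt (SE 0.0749, adjusted p = 0.0932 by edgeR, 0.0359 with the block) and 0.43 against gtf2i (SE 0.0751, adjusted p = 0.00909). That of gtf2i against wt was -0.17 (SE 0.0751, unadjusted p = 0.0454, adjusted p = 1 by edgeR).

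Grb10, an adaptor that dampens signalling from insulin and insulin-like growth factor receptors and is expressed from the paternal copy in neurons and the maternal copy elsewhere, was at 585, 596 and 544 CPM in wt. It was at 704, 570 and 567 CPM in gtf2i and at 745, 768 and 681 CPM in gtf2i/gtf2i. The gtf2i/gtf2i libraries were above wt, and gtf2i replicate 1 reached into their range. Grb10's log2 fold change against wt was 0.34 (SE 0.0963, adjusted p = 0.0975 by edgeR, 0.0246 with the block), and against gtf2i 0.25 (SE 0.0962, adjusted p = 0.203).

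Mest, a paternally expressed membrane protein of the hydrolase fold family, was at 366, 327 and 287 CPM in wt, at 300, 289 and 293 CPM in gtf2i and at 418, 461 and 356 CPM in gtf2i/gtf2i. The gtf2i/gtf2i range overlapped wt at 1 library and stood clear of gtf2i. Between libraries with the same title number gtf2i/gtf2i was above wt each time, 461 against 366, 418 against 327 and 356 against 287 CPM. Its log2 fold change was 0.33 against wt (SE 0.103, adjusted p = 0.137 by edgeR, 0.0245 with the block) and 0.48 against gtf2i (SE 0.103, adjusted p = 0.025).

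Ndn encodes necdin, a paternally expressed MAGE family protein of postmitotic neurons. Its levels were 659, 601 and 582 CPM in wt, 564, 627 and 666 CPM in gtf2i and 453, 468 and 510 CPM in gtf2i/gtf2i. Every gtf2i/gtf2i library was below all 6 others. Ndn had a log2 fold change of -0.37 against wt (SE 0.0899, adjusted p = 0.066 by edgeR, 0.0152 with the block) and -0.38 against gtf2i (SE 0.0899, adjusted p = 0.036).

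Snrpn, its neighbour, encodes a spliceosomal protein of neurons and was at 101, 102 and 106 CPM in wt and at 103, 113 and 107 CPM in gtf2i. In gtf2i/gtf2i it was at 86.4, 83.4 and 101.8 CPM, so that replicate 3 lay within the wt range. Snrpn's log2 fold change was -0.19 against wt (SE 0.0938, adjusted p = 0.38 by edgeR, 0.198 with the block) and -0.25 against gtf2i (SE 0.0937, adjusted p = 0.192), and neither passed.

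Meg3, a maternally expressed non-coding RNA and the neighbour of Dlk1, was at 238, 284 and 273 CPM in wt and at 217, 237 and 252 CPM in gtf2i. The gtf2i/gtf2i libraries were at 162, 208 and 245 CPM, of which replicate 3 lay within wt. The log2 fold change against wt was -0.37 (SE 0.127, adjusted p = 0.173 by edgeR, 0.0523 with the block), of the opposite sign to Dlk1's, and it did not pass. It was -0.23 without replicate 1 of gtf2i/gtf2i and -0.52 without replicate 3, where it passed (adjusted p = 0.00686 by edgeR), and its adjusted p ranged up to 0.476 over the alternatives. Peg3, a paternally expressed zinc finger protein, was at 255, 321 and 273 CPM in wt, 313, 280 and 265 CPM in gtf2i and 258, 259 and 331 CPM in gtf2i/gtf2i. Its groups overlapped, and its log2 fold change of -0.01 against wt had a 95% interval from -0.25 to 0.24.

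Leaving out gtf2i/gtf2i replicate 3 raised the count of the 10 past the threshold against wt from 1 to 7, with Meg3 among them, and the count of all genes from 110 to 1159. Leaving out wt replicate 2, wt replicate 3 or gtf2i/gtf2i replicate 2 lowered it to 0 of the 10 and to 83, 28 and 36 of all genes.

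Against gtf2i, 5 of the 10 passed in gtf2i/gtf2i, 4 higher (H19, Dlk1, Cdkn1c and Mest) and 1 lower (Ndn). The same threshold was passed by 3.12% of all genes, 1.33% higher and 1.79% lower. The groups did not overlap for 6 of the 10, with 4 higher and 2 lower, against 19.2% of all genes. The median log2 fold change was 0.33 for the 10 and 0.00655 for all genes. Leaving out gtf2i replicate 2 brought the count to 0, gtf2i/gtf2i replicate 2 to 1 (H19), and either gtf2i/gtf2i replicate 1 or gtf2i replicate 3 to 2 (H19 and Cdkn1c). Of all genes 67, 83, 134 and 70 passed in these settings, in that order, against 365 with all libraries. Between gtf2i and wt, 0 of the 10 passed, as against 0.00854% of all genes, the 1 gene that passed being Gtf2i itself. DESeq2 also passed 0 of the 10 there and in the 3 contrasts of the Gtf2ird1 comparison. In gtf2i against wt their log2 fold changes lay between -0.17 and 0.09, and 1 of the 10, Cdkn1c, had an unadjusted p under 0.05, against 1.6% of all genes. Cdkn1c was also the 1 of the 10 whose groups did not overlap there, against 7.27% of all genes.

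In the Gtf2ird1 comparison 0 of the 10 passed by edgeR in ird1/ird1 against wt, where 0.00854% of all genes did. An unadjusted p under 0.05 was found for 1 of the 10, Peg3, against 16.1% of all genes. The groups did not overlap for 1 of the 10, again Peg3, against 26.9% of all genes. Peg3 was at 246, 198 and 204 CPM in wt, at 220, 186 and 240 CPM in ird1 and at 254, 256 and 254 CPM in ird1/ird1. Its log2 fold change was 0.22 (SE 0.102, unadjusted p = 0.0453, adjusted p = 0.307 by edgeR). The other 9 had log2 fold changes from -0.26 for Dlk1 to 0.21 for Igf2, with adjusted p from 0.343 to 0.584 by edgeR.

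H19 was at 446, 498 and 443 CPM in the wt libraries of this comparison, at 343, 409 and 425 CPM in ird1 and at 400, 418 and 459 CPM in ird1/ird1. All 3 ird1 libraries were below wt, at a log2 fold change of -0.23 (SE 0.103, unadjusted p = 0.0389, adjusted p = 0.997 by edgeR). Ndn was at 613, 792 and 594 CPM in wt, and Dlk1 at 174, 259 and 168 CPM, so that the shallowest library, wt replicate 2, was highest for both. Without it the log2 fold change of ird1/ird1 against wt was 0.01 for Ndn and -0.04 for Dlk1. Igf2 was at 34.2, 40.2 and 39.4 CPM in ird1/ird1 and at 23.3, 28.7 and 33.0 CPM in ird1, a log2 fold change of 0.41 without overlap (SE 0.141, unadjusted p = 0.0113, adjusted p = 0.766 by edgeR). Neither ird1 against wt nor ird1/ird1 against ird1 had any gene past the threshold, 0% of the table, so 0 of the 10 passed there. An unadjusted p under 0.05 was found for 1 of the 10 in the former, against 3.02% of all genes, and for 2, Igf2 and Peg3, in the latter, against 4.66%. Groups did not overlap for 1 of the 10 in the former, H19, against 7.04% of all genes. In the latter they did not overlap for 4 of the 10, with Igf2, Peg3 and Snrpn higher and Ndn lower, against 17% of all genes.

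**Figure D2:**
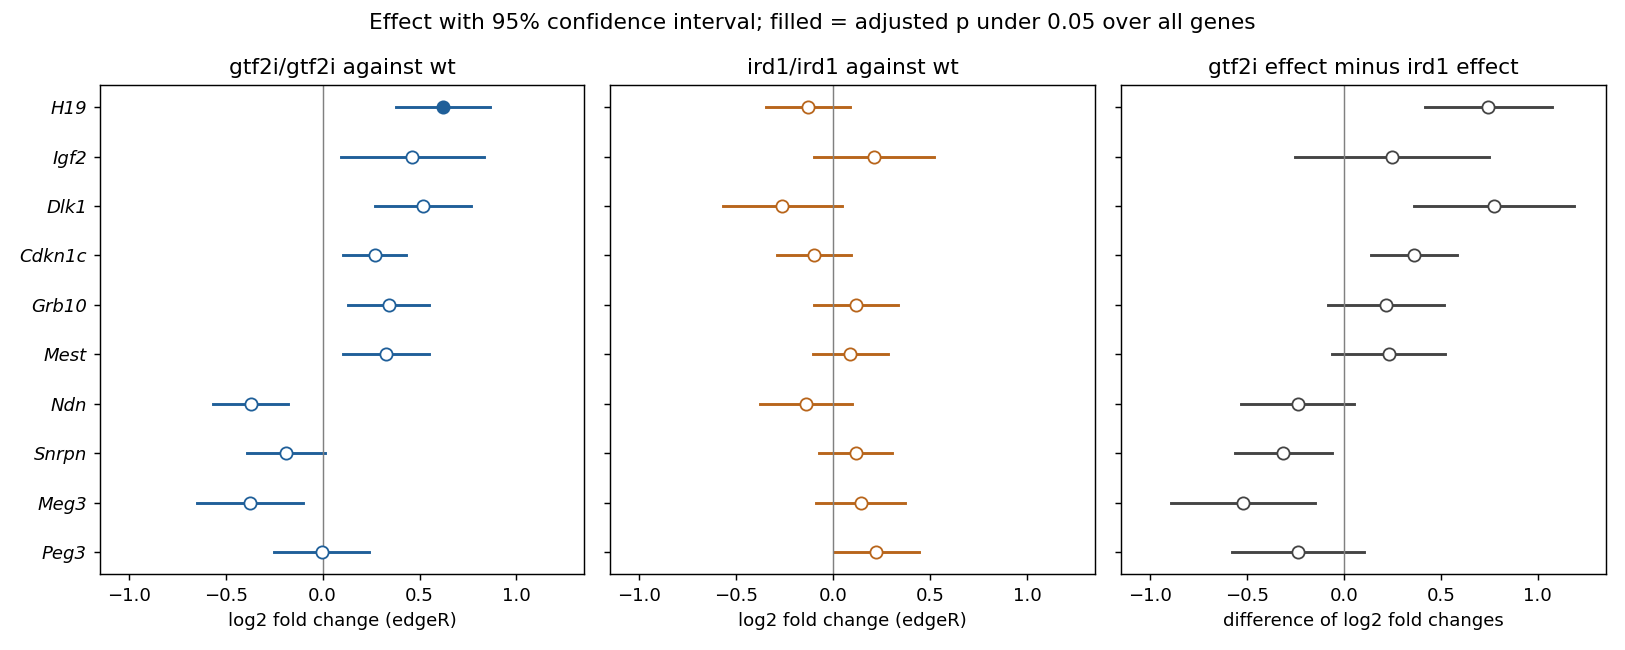
Log2 fold change of each gene with its 95% confidence interval (x axes) in gtf2i/gtf2i against wt, in ird1/ird1 against wt and as the difference of these effects; filled points have an adjusted p under 0.05 over all genes by edgeR without a block. H19 at 0.62 in the left panel is the only filled point, and H19 and Dlk1 have the largest differences, 0.75 and 0.78.

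Whether the effect of gtf2i/gtf2i differed from that of ird1/ird1 was tested directly over all 18 libraries. It passed for 0 of the 10 genes by edgeR, against 0.171% of all genes, and for 2, H19 and Dlk1, by DESeq2, with which 84 of the 11708 genes passed. Without gtf2i/gtf2i replicate 3 it passed for 4 by edgeR, H19, Dlk1, Meg3 and Snrpn, and for 723 of all genes. An unadjusted p under 0.05 was found for 5 of the 10, against 13% of all genes. The log2 difference was 0.75 for H19 (SE 0.158, adjusted p = 0.0502 by edgeR) and 0.78 for Dlk1 (SE 0.199, adjusted p = 0.124). With the title number as a block both passed (adjusted p = 0.0261 and 0.0468 by edgeR), as did 0.709% of all genes; same-numbered libraries of the Gtf2ird1 comparison did not all correlate. The adjusted p of H19 ranged from 0.00333 to 0.177 over the alternatives and that of Dlk1 from 0.0253 to 0.427. The difference was 0.36 for Cdkn1c (SE 0.107, adjusted p = 0.207 by edgeR), -0.52 for Meg3 (SE 0.179, adjusted p = 0.258) and -0.31 for Snrpn (SE 0.12, adjusted p = 0.297). For Igf2, Grb10, Mest, Ndn and Peg3 the 95% interval of the difference included 0. The wt groups of the comparisons also differed from each other, with an unadjusted p under 0.05 for 3 of the 10 and 32.7% of all genes, although 0 of the 10 and 0% of all genes passed by edgeR. By DESeq2 1 of the 10, Peg3, passed, with 1354 of all genes, as it did by edgeR without replicate 1 of the wt of the Gtf2i comparison, with 2076, or of the Gtf2ird1 comparison, with 1032. These 3 were Peg3 at 0.38 (SE 0.116, adjusted p = 0.0689 by edgeR), H19 at -0.30 (SE 0.112, adjusted p = 0.0851) and Meg3 at 0.30 (SE 0.127, adjusted p = 0.114), as the wt of the Gtf2i comparison against the wt of the Gtf2ird1 comparison.

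Other imprinted genes served as the neighbours of the 10. Of 51 listed, 36 were in the table, and 0 passed in gtf2i/gtf2i against wt by edgeR, with 10 at an unadjusted p under 0.05, where 14.4% of all genes were. By DESeq2 also 0 passed. In that contrast 18 had a positive and 18 a negative log2 fold change, with a median of 0.03. Kcnq1ot1, the paternally expressed antisense RNA that silences the paternal copy of Cdkn1c, was at 22.4 ± 0.467 CPM in wt, 15.5 ± 1.48 in gtf2i and 33.0 ± 7.75 in gtf2i/gtf2i (SD, n = 3 each). It rose against gtf2i by 1.09 on the log2 scale (SE 0.16, adjusted p = 0.0032 by edgeR), the 1 of the 36 that passed there, against 3.12% of all genes. Against wt its log2 fold change was 0.56 (SE 0.154, adjusted p = 0.0916 by edgeR, and 0.0444 with the block). It was 0.35 without gtf2i/gtf2i replicate 1 (adjusted p = 0.352, the highest over the alternatives) and 0.66 without replicate 3 (adjusted p = 0.0169, the lowest), and in gtf2i against wt it was -0.54 (SE 0.164, adjusted p = 1). Kcnq1ot1 and Cdkn1c therefore had the same order of genotypes in this comparison, gtf2i lowest and gtf2i/gtf2i highest, though neither passed in gtf2i against wt. The order was not particular to this pair. H19, Dlk1 and Mest had it too, with log2 fold changes of -0.02, -0.04 and -0.15 in gtf2i against wt. RefSeq places Kcnq1ot1 within Kcnq1, so its counts may include unspliced reads of that gene.

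**Figure D3:**
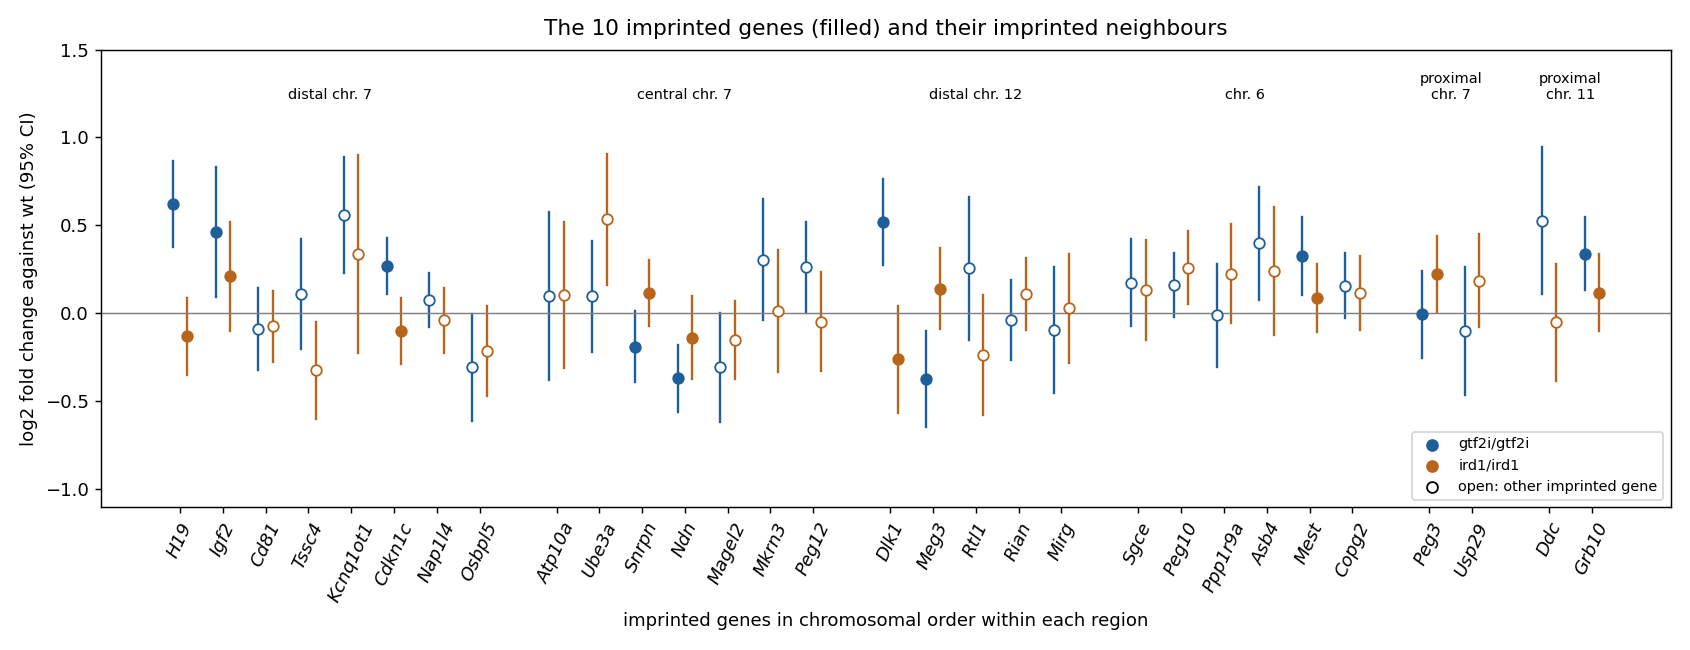
Log2 fold change against wt with 95% confidence intervals (y axis) for the 10 genes (filled) and their imprinted neighbours (open) in chromosomal order within each region (x axis), gtf2i/gtf2i in blue and ird1/ird1 in orange. On distal chromosome 12 Dlk1 at 0.52 and Meg3 at -0.37 lie on opposite sides of 0, with Rian at -0.04 beside them.

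Within the clusters, neighbours did not all have the sign of the 10. In gtf2i/gtf2i against wt, Ddc beside Grb10 had a log2 fold change of 0.53 (SE 0.195, adjusted p = 0.215 by edgeR) and Copg2 beside Mest of 0.16 (SE 0.086, adjusted p = 0.443). Magel2 beside Ndn had -0.31 (SE 0.145, adjusted p = 0.354), whereas Peg12, in the same cluster, had 0.26 and Mkrn3 0.31. On distal chromosome 12 Rian had -0.04, Mirg -0.10 and Rtl1 0.26. Of these neighbours 0 passed. Osbpl5, beyond Cdkn1c, had -0.31 (SE 0.141, adjusted p = 0.338).

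In the insulin-like growth factor pathway, 15 of 17 listed genes were in the table and 1 passed in gtf2i/gtf2i against wt, where 0.94% of all genes did. This was Igfbp5, a secreted protein that binds insulin-like growth factors, at 252 ± 16.4 CPM in wt, 241 ± 13.5 in gtf2i and 332 ± 23.3 in gtf2i/gtf2i (SD, n = 3 each). It rose by 0.39 (SE 0.0838, adjusted p = 0.044 by edgeR) against wt and by 0.46 (SE 0.0839, adjusted p = 0.0126) against gtf2i. Its adjusted p against wt ranged from 0.00399 to 0.196 over the alternatives and was above the threshold without any 1 of the 3 wt libraries or gtf2i/gtf2i replicate 2, and against gtf2i without gtf2i replicate 2 or 3 or gtf2i/gtf2i replicate 2. With the block 4 passed, the others being the RNA-binding proteins Igf2bp1, Igf2bp2 and Igf2bp3, which are known to bind Igf2 and H19 RNA. All 4 were higher, against 2.03% of all genes. Without it, Igf2bp1 had 0.40 (SE 0.112, adjusted p = 0.0933 by edgeR) and Igf2bp3 0.35 (SE 0.0946, adjusted p = 0.086). The median over the 15 was 0.13. The receptors Igf1r at 0.09 (SE 0.0856) and Igf2r at 0.13 (SE 0.0762) did not pass.

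Of 12 listed cell cycle inhibitors and Notch pathway genes, related to Cdkn1c and Dlk1, 0 passed in gtf2i/gtf2i against wt by edgeR and 6 had an unadjusted p under 0.05, against 14.4% of all genes. With the block 4 passed, Notch1, Notch3, Hes5 and Dll3, all higher, against 2.03% of all genes higher, and by DESeq2 1, Notch3. Against gtf2i 2 passed, the Notch target Hes5 at 0.57 (SE 0.125, adjusted p = 0.0267 by edgeR) and the ligand Jag1 at 0.36 (SE 0.0878, adjusted p = 0.0401), where 1.33% of all genes passed as higher. The other inhibitors Cdkn1a at -0.14 (SE 0.152) and Cdkn1b at -0.10 (SE 0.0916) against wt did not follow the sign of Cdkn1c, and neither passed. Of 18 listed genes that maintain imprints or modify chromatin, all in the table, 0 passed in any contrast by edgeR, with 1 at an unadjusted p under 0.05 in gtf2i/gtf2i against wt, Uhrf1. Uhrf1, which recruits the maintenance DNA methyltransferase, had 0.34 (adjusted p = 0.267) and Zfp57 -0.24 (adjusted p = 0.39). In gtf2i against wt and in each contrast of the Gtf2ird1 comparison, 0 genes of these lists passed by edgeR.

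Markers of other cells were measured in the same libraries. Of all genes 0.41% passed as higher against wt, 2.03% with the block and 1.33% against gtf2i, and the counts of markers below stand against these. The summed level of 22 of 26 listed mesenchyme and meninges markers ranged from 1799 to 2059 CPM in wt, from 1686 to 2250 CPM in gtf2i and from 1924 to 2842 CPM in gtf2i/gtf2i. Of these 22, 18 had a positive log2 fold change against wt, 0 passed, and the median was 0.25. For 8 of 15 listed red blood cell markers the sums were 4091 to 5314 CPM in wt, 3796 to 4196 CPM in gtf2i and 5790 to 9184 CPM in gtf2i/gtf2i. All 8 had a positive log2 fold change, with a median of 0.47, and 2 passed against wt, Slc4a1 at 0.83 (adjusted p = 0.0379 by edgeR) and Hbb-y at 0.76 (adjusted p = 0.0392). With the block 5 red blood cell markers passed, all higher, and 3 mesenchyme markers higher and 1 lower, against 3.3% of all genes lower. Against gtf2i 5 of the 8 red blood cell markers rose by edgeR, with a median log2 fold change of 0.77 over the 8, and 2 of the 22 mesenchyme markers rose, Col5a2 at 0.50 (adjusted p = 0.0253) and Lum at 0.53 (adjusted p = 0.0368). The part of these cells in the results for H19, Igf2 and Dlk1 was not tested.

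**Figure D4:**
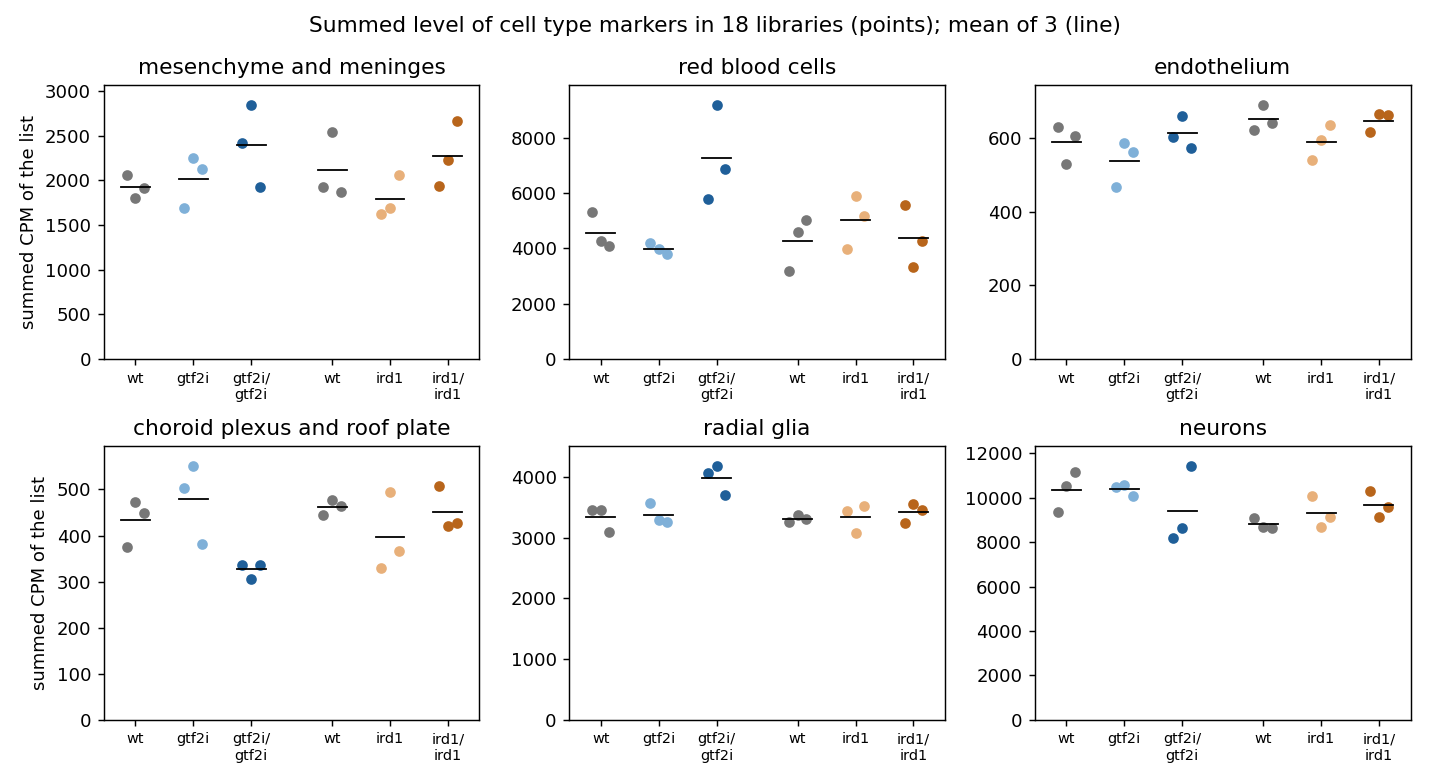
Summed CPM of the listed markers of each cell type in the table (y axes from 0), by genotype label (x axes); points are the 18 libraries and lines the mean of 3. In gtf2i/gtf2i the red blood cell sums, from 5790 to 9184 CPM, lie above those of wt, and the neuron sums of 2 libraries lie below wt while replicate 3 is above it.

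Radial glia markers, 15 of 16 in the table, summed to 3102 to 3458 CPM in wt and 3706 to 4184 CPM in gtf2i/gtf2i. Of these 15, 11 had a positive log2 fold change against wt with a median of 0.11. Only 1 passed, Pax3 at 0.82 (adjusted p = 0.0485 by edgeR), the highest value of the list. That call stands for Pax3 and not for radial glia as a whole. Neuron markers, 16 of 16, summed to 9357 to 11162 CPM in wt and to 8184, 8642 and 11429 CPM in gtf2i/gtf2i, of which the highest was replicate 3. Of the 16, 13 had a negative log2 fold change with a median of -0.19, and 0 passed. Replicate 3 was also the gtf2i/gtf2i library with the highest Ndn, Snrpn and Meg3 and the lowest H19, Dlk1, Grb10 and Mest. Against gtf2i 4 radial glia markers rose by edgeR, Pax3 at 1.15, Hes5 at 0.57, Vim at 0.40 and Nes at 0.36. Of the neuron markers 0 passed there, with 5 of 16 at an unadjusted p under 0.05, against 16.5% of all genes. With the block 6 radial glia markers passed against wt, all higher against 2.03% of all genes, and 3 neuron markers, all lower, against 3.3% of all genes lower. Against gtf2i 1.33% of all genes passed as higher. The part of neuron and progenitor content in the results for the 10 genes was not tested. In ird1/ird1 against wt the neuron median was 0.19 and the mesenchyme median 0.10, and 0 markers of either list passed.

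For the choroid plexus and roof plate, 11 of 16 markers were in the table and summed to 376 to 474 CPM in wt and 306 to 336 CPM in gtf2i/gtf2i. The fall lay in Ttr, the choroid plexus thyroid hormone carrier, at -1.63 (SE 0.184, adjusted p = 0.000532 by edgeR), while 8 of the 11 had a positive log2 fold change. The part of choroid plexus content in the results for Igf2 was not tested. Endothelial markers, 16 of 17, summed to 529 to 632 CPM in wt and 573 to 661 CPM in gtf2i/gtf2i, and 0 passed. Of hypothalamus and midbrain markers 8 of 16 were in the table, 0 passed against wt, and against gtf2i the hypothalamic factor Otp at 0.57 and the floor plate factor Foxa2 at 1.00 passed (adjusted p = 0.0267 and 0.0256 by edgeR). With the block both also passed against wt, Otp at 0.53 (adjusted p = 0.0223) and Foxa2 at 0.86 (adjusted p = 0.0312). Markers absent from the table were below the authors' minimum in at least 1 library or were not in the table for another reason, and were not analysed here.

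**Figure D5:**
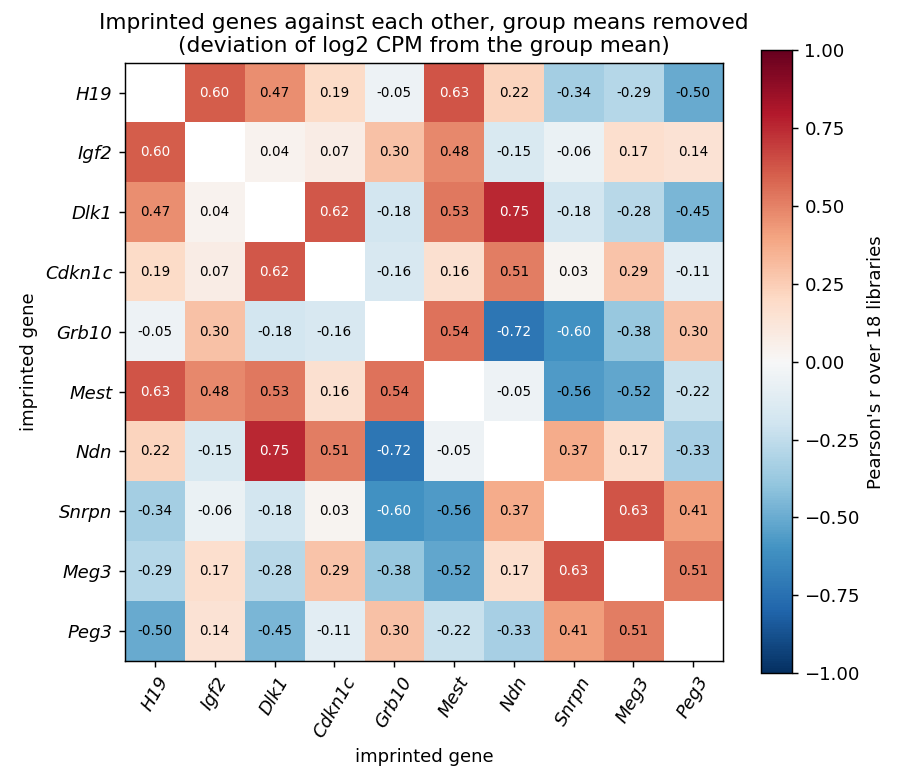
Pearson's r between each pair of the 10 genes (both axes) over 18 libraries, from deviations of log2 CPM from the group mean; red is positive and blue negative. The values run from -0.72 for Grb10 with Ndn to 0.75 for Ndn with Dlk1.

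Whether the 10 genes varied together beyond genotype was examined over the 18 libraries after each group mean was removed. Over the 45 pairs r ranged from -0.72 to 0.75 with a median of 0.07, and 0 pairs had an adjusted p under 0.05 in the exact permutation test that exchanged libraries within groups, two-sided. Ndn with Dlk1 had r = 0.75 (exact permutation p = 0.0201, adjusted 0.171) and rho = 0.61 (exact permutation p = 0.0394, adjusted 0.258). Without the 2 libraries farthest from the median of Ndn, r was 0.54, and it was 0.47 in the Gtf2i comparison and 0.92 in the Gtf2ird1 comparison. In the Gtf2ird1 comparison wt replicate 2, the shallowest library, was highest for both genes (792 and 259 CPM). The value of r in that comparison without this library was not computed. Grb10 with Ndn had r = -0.72 (exact permutation p = 0.0115, adjusted 0.171) and rho = -0.72 (exact permutation p = 0.00733, adjusted 0.165), -0.59 without 2 libraries, and -0.63 and -0.79 within the comparisons. The neighbours H19 and Igf2 had r = 0.60 (exact permutation p = 0.172, adjusted 0.455) and rho = 0.56 (exact permutation p = 0.0893, adjusted 0.318), 0.43 without 2 libraries. Dlk1 and Meg3, also neighbours, had r = -0.28 (exact permutation p = 0.344, adjusted 0.645) and rho = -0.32 (exact permutation p = 0.309, adjusted 0.579). Ndn and Snrpn had r = 0.37 (exact permutation p = 0.284, adjusted 0.581) and rho = 0.40 (exact permutation p = 0.182, adjusted 0.431).

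The genes most like each of the 10 over the 18 libraries, by Pearson's r of the same deviations among the other 11707 genes, are given as a description, and libraries of unequal depth and tissue content contribute to each value. H19 was most like Adgra2 (r = 0.94), Ctsz (0.90) and Sparc (0.90), of which Sparc encodes an extracellular matrix protein. Ndn was most like Cdk5r2 (0.98), an activator of the neuronal kinase Cdk5, and Sbk1 and Lrrc4b (both 0.96). Grb10 was most like Cdca2 (0.96), the centriole kinase Plk4 (0.91) and the progenitor factor Nr2e1 (0.91), and Mest was most like the Wnt receptor Fzd2 (0.92), Zfp395 (0.90) and the mitotic protein Cdca8 (0.88). Dlk1 was most like Git1 (0.95), Nectin1 (0.94) and Ddr1 (0.92). Igf2 was most like Cep63 (0.85), 2500004C02Rik (0.84) and Fli1 (0.83), a transcription factor of endothelial and blood cells. Peg3 was most like Paxbp1, Onecut2 (both 0.92) and Ankrd10 (0.91), and Snrpn most like Phactr3 (0.92), Zfp941 (0.89) and Unc79 (0.87). Meg3 was most like Mgat4a (0.88), En1 and AI593442 (both 0.87), and Cdkn1c most like Slc9a3r1 (0.83), Klhdc4 and the clock gene Per1 (both 0.81). None of these 30 genes was another of the 10.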

How the data were processed

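Whole-brain RNA was made into libraries with a kit that the labels' protocols do not name as a directional form. The submitters' processing notes name Trimmomatic, STAR, HTSeq and the build mm10, and give no versions. The authors deposited raw read counts, whole numbers with no normalization, per the file header, for 11708 genes, of which 8 have no symbol. The smallest count was near 3 CPM of the total in each library, between 2.9 and 3.09, so genes below the authors' minimum in any library are not analysed here. Of all per-sample columns 0 were left unused. The 32 chromatin immunoprecipitation and input samples were not analysed here.

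Scaling used edgeR's TMM factors, and tests were quasi-likelihood F-tests in edgeR with Benjamini-Hochberg adjustment (R 4.3.3, edgeR 4.0.16, limma 3.58.1, and DESeq2 1.42.0 as an alternative). The filter filterByExpr removed 0 genes. Each genotype contrast was fitted on the 9 libraries of its comparison, and the difference of effects and the wt contrast on all 18. An adjusted p under 0.05 passed. Standard errors came from the log2 fold change and the F statistic. Levels are TMM-scaled CPM, and log2 CPM for correlations used a prior count of 2. At 10 counts or more per gene and library the precision is limited by depth for low genes, and among the 10 genes the lowest count was 88. All 18 pairs of libraries within groups differed by more than sampling noise, with a chi-square per degree of freedom of 2.9 to 29.5. The edgeR test was also run on simulated counts of independent libraries, with the same dispersion for every gene and no effect of the title number. That run therefore does not cover shared deviations by number or unequal spread between genes.

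Same-numbered titles in wt and gtf2i/gtf2i had correlated deviations from the group means, at 0.377, 0.103 and 0.52 over genes, so the number beginning the title was treated as pairing these libraries. Replicate 1 of wt and replicate 1 of gtf2i/gtf2i, with different numbers, had 0.203, above the lowest of these. Over all genotypes of the Gtf2i comparison, same-numbered pairs had 0.0485 to 0.52 and different-numbered pairs -0.437 to 0.203. The labels do not say what the number is. The 10 genes and all lists were chosen with earlier results of these data known, and the grouping of neighbours by region was made after the values were seen. All 10 genes were named. From other lists the rule named genes that passed, at most the 4 with the smallest p per list and contrast, or up to 2 as values where none passed, and for each of the 10 the 3 genes with the highest r. Neighbours in the same region, members lost or gained with the block, and contrasting relatives were named in addition after their values were seen. Alternatives were DESeq2, library totals, upper-quartile scaling, other count filters, other sets of libraries, the title number as a block, and each library left out. Symbol and identifier matched the RefSeq table of GRCm38.p6 for all 10 genes.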

Additional observations from a re-analysis of the deposited data

How the results depend on the processing

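The count of the 10 genes past the threshold in gtf2i/gtf2i against wt, 1 in the main analysis, was 4 with DESeq2 (H19, Dlk1, Grb10 and Ndn), 2 with library totals, 2 with upper-quartile scaling, 2 with a mean count of at least 50 (H19 and Dlk1 in each), 0 with only the groups compared and 6 with the title number as a block; it ranged from 0 to 7 when each library was left out. The direction of 9 of the 10 genes held in all of these. Peg3, at -0.01, was 0.001 with DESeq2, 0.0001 with upper-quartile scaling, 0.0018 with a mean count of at least 50 and 0.0003 with all 18 libraries, and ranged from -0.129 to 0.0916 without each library. The cause was not tested. Of all genes, 110 passed in the main analysis, 310 with DESeq2 and 624 with the block. The totals of all genes with library totals, upper-quartile scaling, the count filter and only the groups compared are not given here. The counts of the 10 in those settings therefore stand without a share to set them against.

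The count in gtf2i/gtf2i against gtf2i, 5, ranged from 0 to 7 without each library, and the count of all genes from 67 to 1376. Over all alternatives Dlk1 and Ndn each lost the call in 5 and kept it in 9. Peg3 ranged from -0.147 to 0.0521 in this contrast. For the difference of effects, 0 in the main analysis, it was 2 with DESeq2, 1 with a mean count of at least 50 and 2 with the block (H19 and Dlk1), and ranged from 0 to 4 without each library, while Igf2 ranged from -0.0045 to 0.4357. The wt contrast gave 1 with DESeq2 (Peg3) and 0 or 1 without each library; of all genes 0 passed there in the main analysis and 1354 with DESeq2. In ird1/ird1 against wt Ndn ranged from -0.205 to 0.0074 without each library. The block left the counts of the other genotype contrasts as they were, and it could not be fitted for the wt contrast, whose groups share no number. In the other contrasts not every same-numbered pair correlated above 0.1, so there they share only a number. With 2 libraries left in a group, the spread was taken from all groups fitted. By CPM not divided by length, Ndn ranked 1, Grb10 2 and H19 3 among the 10 in wt, against 2, 5 and 1 per kilobase.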
